A study of Homo sapiens with 8 samples.

Results

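The matrix metalloproteinases (MMP), the ADAM and ADAMTS metalloproteases and the tissue inhibitors of metalloproteinases (TIMP) were examined in MP38 cells, a BAP1-mutant uveal melanoma (UM) line, after histone deacetylase (HDAC) or BET bromodomain inhibition. Members were taken by gene symbol alone (MMP, ADAM or ADAMTS followed by a number, and TIMP1 to TIMP4), which gave 69 of the 35238 symbols in the count table, among them 24 MMPs, 22 ADAMs, 19 ADAMTS genes and 4 TIMPs. Of these, 63 had at least 1 count in some library and 42 had enough counts to be tested.

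The drug groups received the HDAC inhibitor romidepsin at 40 nM, the HDAC inhibitor quisinostat at 40 nM or the BET inhibitor mivebresib at 1200 nM for 24 h, and control cells received only the vehicle, 0.1% DMSO, which all groups shared along with the serum-containing medium. There were 4 groups of 2 bulk RNA libraries. Both libraries of a group came from separate wells of 1 line, so p-values measure the spread between wells and not between lines or patients. The number of reads counted per gene is called the count, and CPM is the count scaled for library size and composition (TMM).

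MMPs, ADAMs and ADAMTS proteins are zinc-dependent endopeptidases. MMPs are made as inactive precursors and cut collagens, gelatin and other matrix proteins, most ADAMs sit in the cell membrane and release the outer parts of membrane proteins, and ADAMTS proteins are secreted enzymes that process procollagen and proteoglycans. TIMPs bind the active site and block it, and TIMP2 also helps MMP14 at the cell surface to activate MMP2. UM spreads through the blood, mostly to the liver, and these proteases are known for opening the matrix on that route.

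Total counts ran from 28483235 to 29359024 per library, and the members took between 0.264% and 0.366% of them. The control libraries stood apart from each other, with a chi-square per degree of freedom of 58.1 between them against 9.52 to 9.79 in the drug groups, and 35 of the 42 tested members were higher in control replicate 2 than in control replicate 1. Values against control therefore leaned on which control library was used. Melanocytic markers fitted the label only in part: MLANA, PMEL, MITF and SOX10 had at least 1468 counts in every library, whereas TYR had 42 to 111 and DCT at most 5. The summed melanocytic level was 1210 to 1340 CPM in the control, 1200 to 1220 with romidepsin, 814 to 879 with quisinostat and 613 to 624 with mivebresib. Markers of other cells were low in all libraries. The 5 immune markers together reached at most 0.665 CPM and the 4 endothelial ones at most 0.796, with CD3E and CDH5 at 0 throughout. The 6 fibroblast markers summed to 1.98 to 2.48 CPM in the control, 4.24 to 5.46 with romidepsin, 8.44 to 10.9 with quisinostat and 1.28 to 1.76 with mivebresib. This was mostly COL1A1, and LUM had at most 1 count. The 5 epithelial markers summed to 4.68 to 5.07 CPM in the control, 7.49 to 8.89 with romidepsin, 11.2 to 11.5 with quisinostat and 6.55 to 6.58 with mivebresib, with KRT5 at 0. Their part in the results below was not tested. In bulk RNA, fewer cells of a kind and less RNA per cell cannot be told apart.

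The sequences around the transcription start of 6 members are shown because these members were called with a drug, as defined below, and have an entry in the RefSeq promoter table (GRCh38.p14), which covers 39 of the 69 members. With 56.5% of the members covered, a comparison of promoter content over the whole group is void, and only the single sequences are described. Each runs 5′ to 3′ from 250 bases before to 50 after the start, and capitals mark motifs. The motifs searched on both strands were the AP-1 site TGACTCA, the cyclic AMP response element TGACGTCA, the E-box CACGTG and the GC box GGGCGG. The TATA box letters TATAAA were searched on the given strand only. No searched motif contains another. The first 5 sequences belong to members that rose with quisinostat, and the last to a member that fell with mivebresib.
ADAM22 (chr7:87934001-87934300, plus strand): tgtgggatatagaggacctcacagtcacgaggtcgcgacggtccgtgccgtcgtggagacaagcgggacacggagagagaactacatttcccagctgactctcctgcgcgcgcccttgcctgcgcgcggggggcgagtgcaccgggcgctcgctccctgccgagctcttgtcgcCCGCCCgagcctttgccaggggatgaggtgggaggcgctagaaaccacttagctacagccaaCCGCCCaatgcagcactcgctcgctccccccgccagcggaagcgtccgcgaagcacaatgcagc
ADAMTS2 (chr5:179345412-179345711, minus strand): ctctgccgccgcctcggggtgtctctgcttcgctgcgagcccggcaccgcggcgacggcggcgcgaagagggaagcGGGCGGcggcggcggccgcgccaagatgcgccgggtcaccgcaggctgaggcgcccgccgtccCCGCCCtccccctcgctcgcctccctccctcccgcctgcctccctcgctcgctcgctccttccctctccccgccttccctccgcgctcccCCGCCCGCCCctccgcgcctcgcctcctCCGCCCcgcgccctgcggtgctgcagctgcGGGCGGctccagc
ADAMTS3 (chr4:72569172-72569471, minus strand): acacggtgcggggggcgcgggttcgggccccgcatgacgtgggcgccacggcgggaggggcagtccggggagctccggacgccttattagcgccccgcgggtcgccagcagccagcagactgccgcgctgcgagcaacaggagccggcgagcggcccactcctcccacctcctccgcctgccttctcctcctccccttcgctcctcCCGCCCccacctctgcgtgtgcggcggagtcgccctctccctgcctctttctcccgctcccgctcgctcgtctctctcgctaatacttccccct
ADAMTS6 (chr5:65481871-65482170, minus strand): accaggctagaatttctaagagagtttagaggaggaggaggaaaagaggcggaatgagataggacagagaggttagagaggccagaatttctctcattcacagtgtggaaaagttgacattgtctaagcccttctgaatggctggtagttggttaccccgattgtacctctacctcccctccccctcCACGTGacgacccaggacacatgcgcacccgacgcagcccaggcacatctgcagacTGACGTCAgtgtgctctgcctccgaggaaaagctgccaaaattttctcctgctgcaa
ADAMTS12 (chr5:33891941-33892240, minus strand): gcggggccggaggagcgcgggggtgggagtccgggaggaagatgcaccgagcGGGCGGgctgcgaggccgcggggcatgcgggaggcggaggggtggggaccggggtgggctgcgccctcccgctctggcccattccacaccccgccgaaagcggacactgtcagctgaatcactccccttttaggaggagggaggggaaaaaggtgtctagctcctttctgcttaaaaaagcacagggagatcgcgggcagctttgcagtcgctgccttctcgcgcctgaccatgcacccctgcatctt
ADAM12 (chr10:126388428-126388727, minus strand): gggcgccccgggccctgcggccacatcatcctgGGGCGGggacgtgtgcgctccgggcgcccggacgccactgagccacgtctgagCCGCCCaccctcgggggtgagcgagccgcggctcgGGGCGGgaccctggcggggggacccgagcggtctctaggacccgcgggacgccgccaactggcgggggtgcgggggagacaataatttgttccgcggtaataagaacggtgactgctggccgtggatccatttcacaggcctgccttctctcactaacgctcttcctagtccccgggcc

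Of these 6 windows, 5 held a GC box, which 45.0% of the 35116 promoters in the table hold. ADAMTS2 had 6 of them, from -174 to 38 by the first base of each match, where the start site is 1. ADAM12 had 3, at -217, -164 and -129, and ADAM22 had 2, at -76 and -14. ADAMTS12 had 1 at -198 and ADAMTS3 had 1 at -44. ADAMTS6 had no GC box and 9 CG pairs in 300 bases, where the other windows had 24 to 47 and the median promoter of the table had 14. Its window held a cyclic AMP response element at -7, found in 1.85% of all promoters, and an E-box at -63, found in 7.26%. None held the AP-1 letters or TATAAA, which 4.95% and 7.33% of promoters hold. These are letter matches and say nothing of what binds there.

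In control cells the inhibitors and membrane proteases led the group. Levels between genes are given as CPM per kb of exon (GENCODE 29), since longer genes collect more reads. TIMP2 stood first at 230.0 CPM per kb, followed by TIMP1 at 79.9, the membrane-type MMP14 at 70.5, ADAM23 at 54.8, ADAM9 at 34.8 and TIMP3 at 27.3. TIMP2 alone took 39.8% to 46.5% of all member counts in a library, and the 10 most abundant members took 88.5% to 92.0%. The neighbours TIMP1 and MMP14 did not differ beyond their spread, because the MMP14 libraries differed from each other by more than the gap (252 and 378 CPM). At the other end, ADAMTS6, ADAMTS9, ADAMTS3, ADAMTS4, ADAMTS8 and ADAMTS12 all lay between 0.00846 and 0.0371 CPM per kb. ADAMTS3, ADAMTS6, ADAMTS8, ADAMTS9 and ADAMTS12 are described below as members that rose from this low end. ADAM2, ADAM5, ADAM7, ADAM30, MMP27 and TIMP4 had no count in any library, and a count of 0 allows up to 3 counts per library by counting error.

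**Figure D1:**
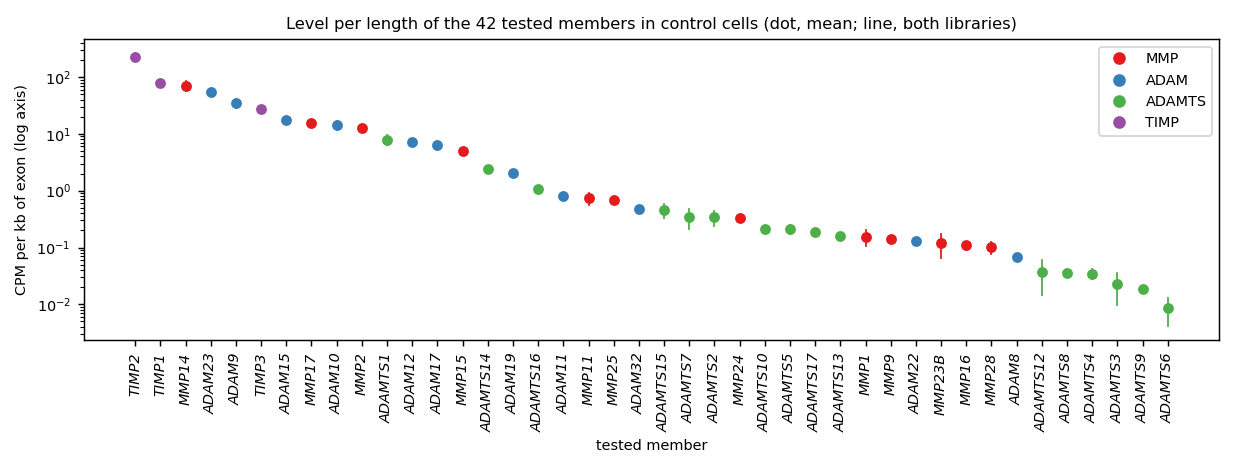
Level of the 42 tested members in control cells, as CPM per kb of exon on a log axis, ordered from high to low and coloured by family. Dots are the mean of 2 libraries and lines join both libraries. TIMP2, TIMP1 and MMP14 stand at the left, and 6 ADAMTS genes fill the right end at 0.0371 CPM per kb or less.

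Against control, more members rose than fell with both HDAC inhibitors. A member is said to rise or fall at a Benjamini-Hochberg adjusted p below 0.05 in edgeR's quasi-likelihood test over 15085 genes, and to be called when its log2 fold change (FC) also passes 1.5. With romidepsin, 11 members rose and 1 fell, beside 15.2% and 15.8% of all genes tested. With quisinostat, 19 rose and 6 fell, beside 28% and 25.1% of all genes. With mivebresib, 11 rose and 8 fell, beside 22.2% and 24.1% of all genes. The median log2 FC of the 42 tested members was 0.27 with romidepsin, 0.52 with quisinostat and 0.10 with mivebresib, beside -0.01, 0.00 and 0.01 over all genes. The 3 comparisons share their control libraries and are not independent of one another.

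At the larger fold, 12 members were called with at least 1 drug. With romidepsin 5 members were called higher and 0 lower, beside 3.77% and 0.312% of all genes. With quisinostat 9 were called higher and 0 lower, beside 11.2% and 1.03%. With mivebresib 3 were called higher and 2 lower, beside 3.96% and 4.36%. Both counts of 0 were also 0 with DESeq2 and at an unadjusted p under 0.05 with the same fold. At an unadjusted p under 0.05 with no fold, 3 members were lower with romidepsin and 8 with quisinostat. Single libraries carried weight here: the romidepsin count was 3 without control replicate 1, romidepsin replicate 1 or either quisinostat library, and 7 without control replicate 2, and the mivebresib counts were 3 higher and 4 lower without control replicate 1 and 5 higher and 2 lower without control replicate 2. These counts carry a limit of the filter on low counts. The only group with both libraries above its limit was quisinostat for ADAMTS6 and MMP28 and mivebresib for MMP23B. For ADAMTS3, ADAMTS8, ADAMTS9 and ADAMTS12 it was both HDAC inhibitors, for MMP1 quisinostat and mivebresib, and for MMP9, ADAM8 and ADAMTS4 all 3 drugs and not the control. These members were tested because they were high there. MMP16 was the only member called with all 3 drugs. A total of 11 tested members passed with no drug: TIMP1, TIMP2, ADAM8, ADAM9, ADAM10, ADAM15, ADAM32, ADAMTS4, ADAMTS10, MMP15 and MMP23B. For TIMP2, ADAM9, ADAM10, ADAM15 and MMP23B this changed when 1 control well was left out. Without control replicate 2, TIMP2 (0.34 and 0.34) and ADAM9 (0.43 and 0.47) passed with romidepsin and mivebresib, ADAM15 with quisinostat and mivebresib (0.52 and 0.53) and ADAM10 with romidepsin (0.72). Without control replicate 1, ADAM10 passed with quisinostat and mivebresib (-0.31 and -0.31) and MMP23B with mivebresib (1.96).

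**Figure D2:**
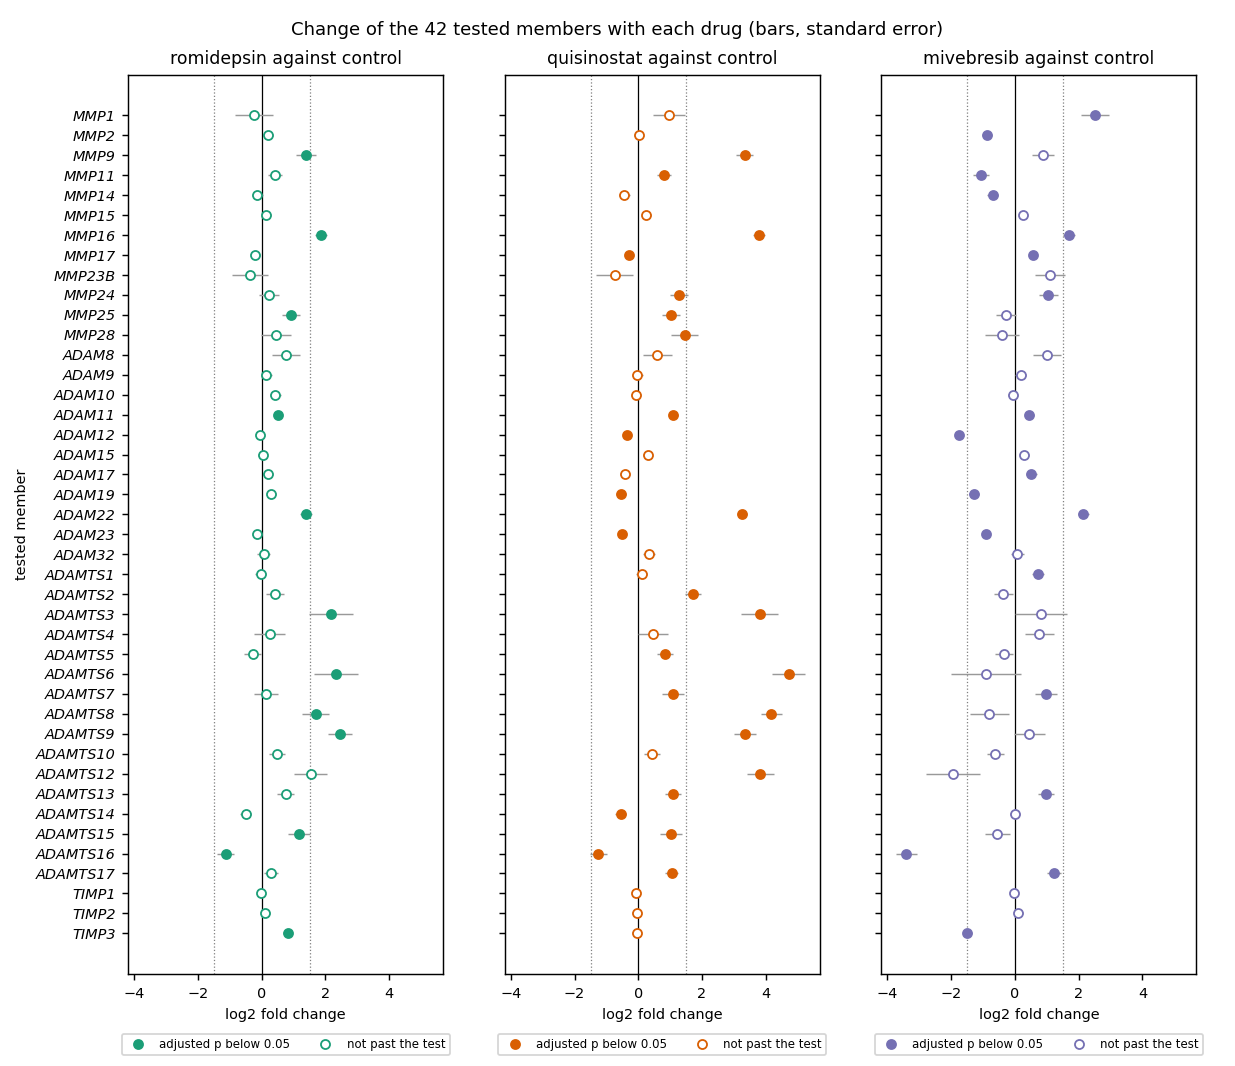
Log2 FC of the 42 tested members against control for romidepsin, quisinostat and mivebresib. Filled points passed the adjusted p, open points did not, bars are standard errors and dotted lines mark a log2 FC of 1.5 either way. The quisinostat panel has the most points beyond the right-hand line (9), and ADAMTS16 is the leftmost point in each panel.

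MMP24, MMP25, ADAM8, ADAM11, ADAM32, ADAMTS4, ADAMTS5, ADAMTS7, ADAMTS10, ADAMTS13, ADAMTS14, ADAMTS17 and MMP15 are named below to complete their groups and were chosen after their values were seen. Their values with a library left out are not given, so how far they lean on a single library is not shown.

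Among the secreted MMPs, MMP9 rose with both HDAC inhibitors, MMP1 rose with mivebresib, and MMP2 and MMP11 fell with mivebresib. MMP9, a gelatinase that cuts denatured collagen and basement membrane collagen, had 10 and 8 counts in the control libraries, 27 and 23 with romidepsin, 101 and 107 with quisinostat and 18 and 15 with mivebresib. No drug library overlapped the control, and both quisinostat libraries lay well above all others. The log2 FC was 1.40 ± 0.31 (SE) with romidepsin (adjusted p = 0.0108), 3.33 ± 0.27 with quisinostat (adjusted p = 2.21e-05) and 0.88 ± 0.33 with mivebresib, which missed the test (adjusted p = 0.0649). Without romidepsin replicate 1 the romidepsin value missed it as well (1.28, adjusted p = 0.0679).

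MMP2, the other gelatinase and the enzyme that MMP14 activates, was far more abundant, with 1540 and 1963 counts in the control, 2141 and 2107 with romidepsin, 1808 and 2204 with quisinostat and 993 and 898 with mivebresib. Only the mivebresib libraries lay below the control. With mivebresib MMP2 fell by 0.88 ± 0.15 on the log2 scale (adjusted p = 0.00146), and its log2 FC was 0.21 ± 0.14 with romidepsin and 0.01 ± 0.14 with quisinostat, neither past the test. Without control replicate 2 the romidepsin value passed (0.42, adjusted p = 0.0174). Per kb of exon, MMP9 went from 0.138 CPM in the control to 1.41 with quisinostat, and MMP2 stood at 12.8 and 12.9.

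MMP1, the interstitial collagenase, had 6 and 11 counts in the control, 10 and 5 with romidepsin, 13 and 25 with quisinostat and 45 and 52 with mivebresib. The mivebresib libraries stood above all others, and the romidepsin libraries overlapped the control. MMP1 rose with mivebresib (log2 FC 2.51 ± 0.44, adjusted p = 0.00198), and its log2 FC was -0.24 ± 0.59 with romidepsin and 0.97 ± 0.50 with quisinostat, neither past the test. It lies in a run of 9 MMP genes on chromosome 11 (chr11:102520508-102955734 on GRCh38), and it was the only one of them with enough counts to test. MMP10, a stromelysin in the same run, had at most 10 counts in any library, and MMP12, a macrophage elastase, had 9 and 19 counts with quisinostat and at most 7 elsewhere. Neither passed the filter.

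MMP11, a stromelysin that is cut to its active form inside the cell by furin, had 83 and 130 counts in the control, 160 and 137 with romidepsin, 215 and 209 with quisinostat and 46 and 56 with mivebresib. Quisinostat libraries lay above the control and mivebresib libraries below it. It rose by 0.81 ± 0.21 on the log2 scale with quisinostat (adjusted p = 0.0123), fell by 1.05 ± 0.25 with mivebresib (adjusted p = 0.00842) and had a log2 FC of 0.41 ± 0.22 with romidepsin (adjusted p = 0.186). The rise was lost without either quisinostat library (adjusted p = 0.0542 and 0.0555), the fall without mivebresib replicate 1 (adjusted p = 0.0607), and the romidepsin value passed without control replicate 2 (0.79). Set against quisinostat directly, the mivebresib value was -1.86 ± 0.24 (adjusted p = 0.000223). The other stromelysins, MMP3 and MMP10, were too low to test. MMP11 overlaps CHCHD10 on the opposite strand, which had 415 to 1226 counts, and MMP28 overlaps TAF15, which had 2400 to 3657, and without strand their reads cannot be told apart. MMP28, or epilysin, rose with quisinostat (log2 FC 1.45 ± 0.42, adjusted p = 0.0182) from 10 and 6 counts to 28 and 22, which missed the test with DESeq2 (adjusted p = 0.0676) and without control replicate 2 or either quisinostat library (adjusted p = 0.0535 to 0.114). MMP23B shares near-identical sequence with MMP23A, so its few counts, 4 to 17 per library, are uncertain. It also overlaps CDK11B on the opposite strand, which had 966 to 1238 counts.

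All 6 membrane-type MMPs were tested. Of these, 2 rose with romidepsin, 3 rose and 1 fell with quisinostat, and 3 rose and 1 fell with mivebresib. Over all genes, 15.2% rose with romidepsin, 28% rose and 25.1% fell with quisinostat, and 22.2% rose and 24.1% fell with mivebresib. MMP14, the main activator of MMP2, had 7117 and 10338 counts in the control, 8590 and 8009 with romidepsin, 6948 and 7707 with quisinostat and 5042 and 5719 with mivebresib. The control libraries spanned the romidepsin ones, and both mivebresib libraries lay below all others. With mivebresib MMP14 fell by 0.69 ± 0.17 on the log2 scale (adjusted p = 0.0105), and had a log2 FC of -0.44 ± 0.17 with quisinostat (adjusted p = 0.0586) and -0.14 ± 0.17 with romidepsin (adjusted p = 0.555). Its mivebresib fall was lost without mivebresib replicate 1 (adjusted p = 0.0782), and its quisinostat value passed without control replicate 1 (-0.70, adjusted p = 0.00018), with DESeq2 (adjusted p = 0.0275) and with the replicate block (adjusted p = 0.0429). The sign of the romidepsin value turned on the control well. Without control replicate 1 the romidepsin value was -0.38 and passed (adjusted p = 0.0178), and without control replicate 2 it was 0.18.

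MMP16, a membrane-type enzyme known from neural tissue and melanoma that can also activate MMP2, started near the bottom and rose with every drug. It had 31 and 42 counts in the control, 147 and 133 with romidepsin, 530 and 616 with quisinostat and 113 and 123 with mivebresib. Every drug library lay above both control libraries. The log2 FC was 1.87 ± 0.19 with romidepsin (adjusted p = 0.000306), 3.79 ± 0.18 with quisinostat (adjusted p = 2.12e-06) and 1.70 ± 0.19 with mivebresib (adjusted p = 0.000193), which is 1.48 without control replicate 1. Romidepsin and mivebresib did not differ for it at this precision (log2 difference -0.17 ± 0.16, adjusted p = 0.417). Per kb of exon, MMP16 went from 0.109 CPM in the control to 1.502 with quisinostat, where MMP14 stood at 52.1.

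MMP17, a glycolipid-anchored membrane-type MMP, rose by 0.58 ± 0.08 on the log2 scale with mivebresib (adjusted p = 0.000567), from 1807 and 1724 counts to 2634 and 2590. With quisinostat it fell by 0.29 ± 0.08 (adjusted p = 0.0155), a change not past the test with library size alone (-0.09) or upper-quartile factors (-0.16), or without quisinostat replicate 1. MMP24 rose with quisinostat and mivebresib (log2 FC 1.28 and 1.05), MMP25, the other glycolipid-anchored one, rose with romidepsin and quisinostat (0.92 and 1.03), and MMP15 passed with no drug. MMP24 had 40 and 40 counts in the control, 116 and 104 with quisinostat and 56 and 109 with mivebresib.

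Of the 12 ADAMs with a working protease site, 7 were tested. With romidepsin all 7 missed the test, with quisinostat 2 fell, and with mivebresib 1 rose and 2 fell. Over all genes, 15.2% rose and 15.8% fell with romidepsin, 25.1% fell with quisinostat, and 22.2% rose and 24.1% fell with mivebresib. ADAM10, which cuts Notch and cadherins, had 5401 and 7566 counts in the control, 9700 and 8596 with romidepsin, 6628 and 7413 with quisinostat and 5909 and 6389 with mivebresib. Both romidepsin libraries lay above the others, but the log2 FC of 0.43 ± 0.16 missed the test (adjusted p = 0.075). DESeq2 and both other scalings put it past the threshold, as did leaving out control replicate 2 (0.72). ADAM17, which releases TNF and EGF receptor ligands, had 1592 and 2172 counts in the control, 2445 and 2114 with romidepsin, 1570 and 1637 with quisinostat and 2432 and 2935 with mivebresib. It rose with mivebresib (log2 FC 0.52 ± 0.16, adjusted p = 0.0267), a result lost without control replicate 1 (0.29, adjusted p = 0.0672), without mivebresib replicate 2 (0.39, adjusted p = 0.173) and with the 4 libraries alone, and its quisinostat value was -0.41 ± 0.16 (adjusted p = 0.0568), past the test without control replicate 1 (-0.64) and with DESeq2. Its romidepsin value passed without control replicate 2 (0.47). In the direct comparison ADAM17 was higher by 0.93 ± 0.16 on the log2 scale with mivebresib than with quisinostat (adjusted p = 0.00119). ADAM17 overlaps IAH1 on the opposite strand, which had 1012 to 1643 counts, and without strand their reads cannot be told apart. ADAM9 and ADAM15 passed with no drug, with log2 FC between -0.03 and 0.29.

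ADAM12, which releases heparin-binding EGF-like growth factor, had 1818 and 2075 counts in the control, 2041 and 1918 with romidepsin, 1638 and 1788 with quisinostat and 535 and 613 with mivebresib. The mivebresib libraries were separated from all others by a wide gap. With mivebresib ADAM12 fell by 1.75 ± 0.11 on the log2 scale (adjusted p = 9.86e-06) and by 0.37 ± 0.10 with quisinostat (adjusted p = 0.0176), the latter not past the test with either other scaling (-0.16 and -0.24), without quisinostat replicate 1 or with the 4 libraries alone. The romidepsin value was -0.04 ± 0.10. ADAM19, its close relative, had fewer counts with mivebresib as well, from 403 and 485 counts in the control to 166 and 197 with mivebresib. It fell by 1.28 ± 0.16 with mivebresib (adjusted p = 0.000272) and by 0.54 ± 0.15 with quisinostat (adjusted p = 0.0139), and with romidepsin had 626 and 522 counts (log2 FC 0.30 ± 0.14, adjusted p = 0.141, but 0.47 and past the test without control replicate 2). The quisinostat fall was lost with library size alone (-0.34, adjusted p = 0.0845) and without quisinostat replicate 1 (adjusted p = 0.102). ADAM19 overlaps CYFIP2 on the opposite strand, a gene that rose with all 3 drugs, with 760 and 695 counts in the control and 4787 and 4735 with quisinostat. Whether counting used strand is not given in the sources used here.

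Of the ADAMs without a working protease site, 4 were tested. With romidepsin 2 rose, and with quisinostat and with mivebresib 2 rose and 1 fell. Over all genes, 15.2% rose with romidepsin, 28% rose and 25.1% fell with quisinostat, and 22.2% rose and 24.1% fell with mivebresib. ADAM11, ADAM22 and ADAM23 bind LGI proteins at synapses and act in adhesion. ADAM22 (chr7:87934143-88202889, plus strand) had 45 and 44 counts in the control, 122 and 123 with romidepsin, 432 and 536 with quisinostat and 184 and 206 with mivebresib. The groups did not overlap anywhere, and replicates were close. The log2 FC was 1.39 ± 0.18 with romidepsin (adjusted p = 0.000861), 3.26 ± 0.16 with quisinostat (adjusted p = 2.6e-06) and 2.14 ± 0.17 with mivebresib (adjusted p = 3e-05). Its order of quisinostat over mivebresib over romidepsin held in the direct comparisons, at -1.12 ± 0.14 for mivebresib against quisinostat (adjusted p = 0.000172) and 0.75 ± 0.15 for mivebresib against romidepsin (adjusted p = 0.00337).

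ADAM11 rose with all 3 drugs, from 102 and 111 counts in the control to 153 and 163 with romidepsin, 262 and 256 with quisinostat and 138 and 152 with mivebresib. Its log2 FC were 0.50 ± 0.13, 1.10 ± 0.13 and 0.46 ± 0.13. ADAM23 went the other way, with 8989 and 10552 counts in the control, 9742 and 8789 with romidepsin, 7317 and 8311 with quisinostat and 4845 and 5410 with mivebresib. It fell by 0.50 ± 0.12 with quisinostat (adjusted p = 0.00765) and by 0.92 ± 0.12 with mivebresib (adjusted p = 0.000417). The quisinostat fall was lost with library size alone (-0.30, adjusted p = 0.0611) and without quisinostat replicate 1 (adjusted p = 0.0772). ADAM32 passed with no drug, and the testis ADAMs (ADAM2, ADAM18, ADAM20, ADAM21, ADAM29 and ADAM30) had at most 3 counts in any library. Of these, ADAM20, ADAM21 and ADAM30 belong to the ADAMs with a working protease site.

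**Figure D3:**
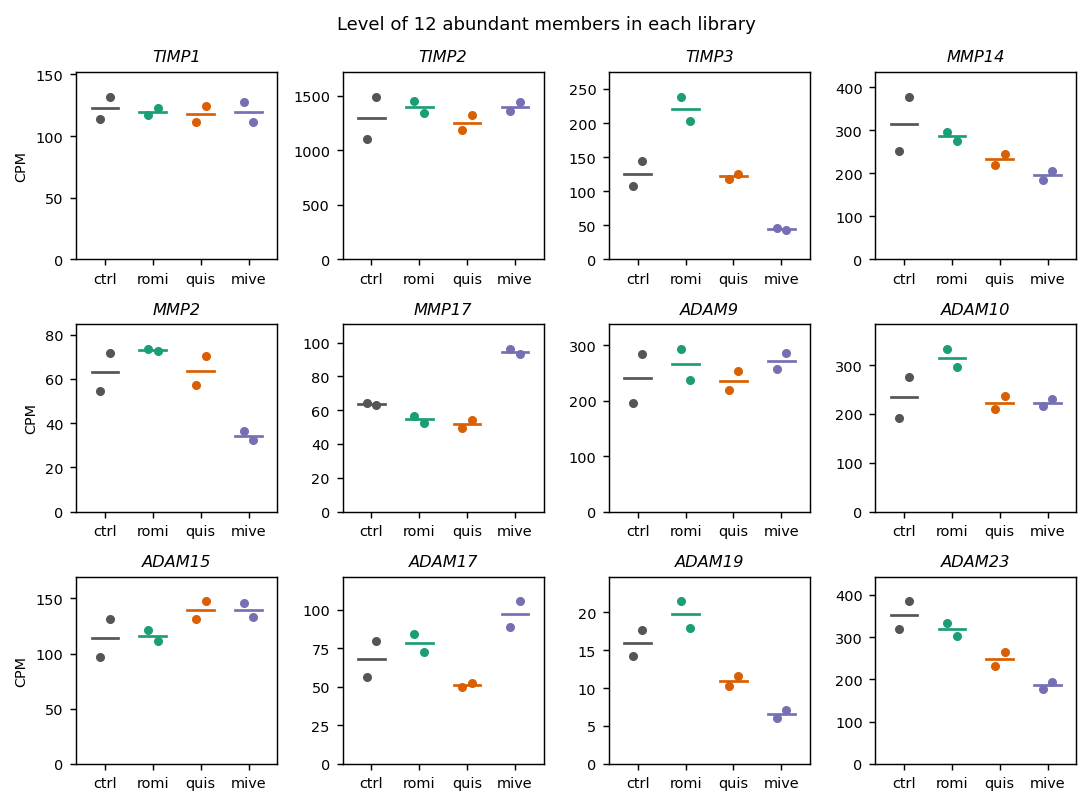
CPM of 12 abundant members in each of the 8 libraries, on linear axes from 0 (ctrl, control; romi, romidepsin; quis, quisinostat; mive, mivebresib). Dots are libraries and lines group means. TIMP1 overlaps across groups. For TIMP2 and ADAM9 each drug group overlaps the control, but the quisinostat dots lie below the mivebresib ones. TIMP3, MMP2, MMP14, ADAM19 and ADAM23 are lowest with mivebresib, and the control dots of MMP14 and ADAM10 lie far apart.

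The ADAMTS genes were 16 of the 42 tested members and 7 of the 12 called ones. Of the 16 tested, 6 were called higher with quisinostat, beside 11.2% of all genes. Of the 7 called, ADAMTS3, ADAMTS6, ADAMTS8, ADAMTS9 and ADAMTS12 passed the filter on low counts through HDAC inhibitor groups. They were tested because they were high there, so their calls are not independent of the filter. Of the 7 proteoglycan-cleaving ones, 6 were tested. Among these 6, the romidepsin comparison had 3 past the test as higher than control, beside 15.2% of all genes. For quisinostat the count was 4, beside 28%, and for mivebresib 1, beside 22.2%. Both HDAC inhibitor counts include ADAMTS8 and ADAMTS9, so they carry the same limit of the filter. The proteoglycan-cleaving ADAMTS8 (chr11:130404925-130428993, minus strand) had 4 and 5 counts in the control, 18 and 13 with romidepsin, 101 and 88 with quisinostat and 3 and 2 with mivebresib. It had at most 5 counts in any control or mivebresib library. The log2 FC was 4.18 ± 0.33 with quisinostat (adjusted p = 2.16e-05), 1.69 ± 0.42 with romidepsin (adjusted p = 0.0171) and -0.81 ± 0.61 with mivebresib (adjusted p = 0.384). The romidepsin call was lost without control replicate 1 (adjusted p = 0.0758), without romidepsin replicate 1 (adjusted p = 0.109) and with the 4 libraries of that comparison alone (adjusted p = 0.0537).

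ADAMTS15, which cleaves the same proteoglycans and lies 19980 bases from ADAMTS8 on chromosome 11, rose less. It had 52 and 92 counts in the control, 195 and 144 with romidepsin, 132 and 202 with quisinostat and 36 and 62 with mivebresib. The log2 FC was 1.17 ± 0.34 with romidepsin (adjusted p = 0.0332) and 1.03 ± 0.34 with quisinostat (adjusted p = 0.0329). Both were lost without control replicate 1 (0.82 and 0.66), the romidepsin one also without either romidepsin library, and the quisinostat one without quisinostat replicate 2. ADAMTS9, which also trims proteoglycans, had 6 and 5 counts in the control, 34 and 30 with romidepsin, 67 and 63 with quisinostat and 10 and 5 with mivebresib. All HDAC inhibitor libraries lay above the rest. It rose by 2.45 ± 0.38 with romidepsin (adjusted p = 0.00223) and 3.35 ± 0.35 with quisinostat (adjusted p = 9.75e-05), and was the one member of the ADAMTS family whose romidepsin call held without each library in turn.

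ADAMTS1 was the most abundant proteoglycan cleaver of these cells. It had 1268 and 1829 counts in the control, 1739 and 1433 with romidepsin, 1767 and 2011 with quisinostat and 2399 and 2708 with mivebresib. Only with mivebresib did both libraries lie above the control. It rose by 0.73 ± 0.18 on the log2 scale with mivebresib (adjusted p = 0.0101), which missed the test without mivebresib replicate 2 (adjusted p = 0.0697). Without control replicate 2 the quisinostat value passed (0.41). ADAMTS5, an aggrecanase like ADAMTS4, rose with quisinostat (log2 FC 0.84 ± 0.25, adjusted p = 0.0197), and ADAMTS4 passed with no drug.

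The procollagen N-propeptidases, which trim the amino end of fibrillar procollagens, rose and fell with quisinostat, 2 up and 1 down. Over all genes, 28% rose and 25.1% fell with quisinostat. ADAMTS2 had 58 and 107 counts in the control, 130 and 99 with romidepsin, 334 and 284 with quisinostat and 60 and 67 with mivebresib. Both quisinostat libraries lay above all others. It rose by 1.72 ± 0.26 with quisinostat (adjusted p = 0.000731), which is 1.32 without control replicate 1, under the fold of a call. The romidepsin value passed without control replicate 2 (0.94), and the mivebresib value without control replicate 1 (-0.76). ADAMTS3 had 2 and 7 counts in the control, 12 and 31 with romidepsin, 81 and 65 with quisinostat and 11 and 5 with mivebresib. It rose with quisinostat (log2 FC 3.80 ± 0.59, adjusted p = 0.000815) and, on the edge of the test, with romidepsin (2.16 ± 0.69, adjusted p = 0.0443). The romidepsin value missed the test without 6 of the 8 libraries, each left out in turn, and with limma-voom, the replicate block and the 4 libraries alone (adjusted p = 0.0563 to 0.259). ADAMTS14, the most abundant of the trio, fell by 0.55 ± 0.17 with quisinostat (adjusted p = 0.0246). COL1A1, which encodes a procollagen they act on, had 40 and 45 counts in the control and 143 and 110 with romidepsin. It had 327 and 251 with quisinostat and 28 and 48 with mivebresib. COL1A2 and COL3A1 had at most 4 counts in any library and were not tested.

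ADAMTS12, which cleaves cartilage oligomeric matrix protein (COMP), had 4 and 16 counts in the control, 37 and 24 with romidepsin, 142 and 184 with quisinostat and 3 and 2 with mivebresib. Both quisinostat libraries lay far above all others and both mivebresib libraries at the bottom. It rose by 3.83 ± 0.43 with quisinostat (adjusted p = 0.000138). With romidepsin the log2 FC was 1.53 ± 0.51 (adjusted p = 0.0522), and with mivebresib -1.94 ± 0.84 (adjusted p = 0.0906). The romidepsin value passed with library size alone, upper-quartile factors, a mean CPM of at least 1, DESeq2 and without control replicate 2 (2.85). The mivebresib value passed with DESeq2 (-1.99) and without control replicate 1 (-2.63). The other COMP-cleaving enzyme, ADAMTS7, rose with quisinostat and mivebresib (log2 FC 1.08 ± 0.35 and 0.98 ± 0.35). Its control libraries lay far apart, with 46 and 100 counts, beside 145 and 207 with quisinostat and 121 and 166 with mivebresib. Without strand, its reads and those of MORF4L1 on the opposite strand cannot be told apart.

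ADAMTS6 (chr5:65148736-65481920, minus strand) acts on fibrillin microfibrils and had the highest log2 FC of the 42 tested members, with quisinostat. It passed the filter on low counts through that group alone and was tested because it was high there. Its place above ADAMTS8 lay within their standard errors. It had 1 and 3 counts in the control, 10 and 12 with romidepsin, 62 and 64 with quisinostat and 2 and 0 with mivebresib. Counting error alone put the quisinostat to control ratio at 27.8 (95% interval 10.6 to 104) and the romidepsin to control ratio at 5.26 (1.79 to 21.0). The fitted log2 FC was 4.72 ± 0.53 with quisinostat (adjusted p = 0.000138) and 2.33 ± 0.68 with romidepsin (adjusted p = 0.0332). The romidepsin call was lost without control replicate 1, without either romidepsin or quisinostat library, and with the 4 libraries alone (adjusted p = 0.0521 to 0.132).

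ADAMTS16 (chr5:5140330-5320304, plus strand), a fibronectin-cleaving enzyme, was the only member that fell with every drug. It had 172 and 183 counts in the control, 103 and 66 with romidepsin, 79 and 90 with quisinostat and 10 and 23 with mivebresib. Every drug library lay below both control libraries, and both mivebresib libraries lay lowest. It fell by 1.14 ± 0.26 on the log2 scale with romidepsin (adjusted p = 0.0124), by 1.25 ± 0.26 with quisinostat (adjusted p = 0.00394) and by 3.41 ± 0.33 with mivebresib (adjusted p = 8.29e-05). Without romidepsin replicate 2 the romidepsin fall missed the test (-0.85, adjusted p = 0.0808). The HDAC inhibitors could not be separated here (log2 difference -0.11 ± 0.28, adjusted p = 0.782), whereas mivebresib was lower than either. Of the rest, ADAMTS13, the von Willebrand factor protease, and ADAMTS17 rose with quisinostat (1.09 and 1.04) and mivebresib (0.98 and 1.23), and ADAMTS10 passed with no drug. ADAMTS13 overlaps REXO4 on the opposite strand, which had 808 to 938 counts, and without strand their reads cannot be told apart.

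**Figure D4:**
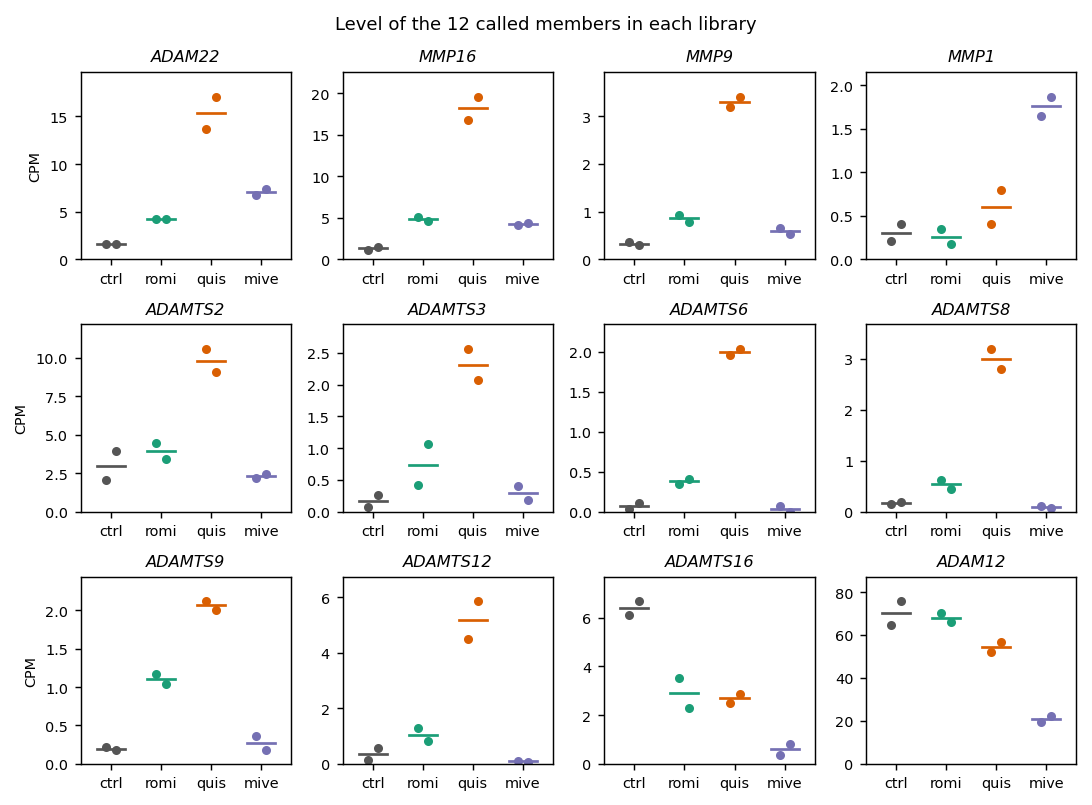
CPM of the 12 members called with at least 1 drug, in each of the 8 libraries, on linear axes from 0 (ctrl, control; romi, romidepsin; quis, quisinostat; mive, mivebresib). Dots are libraries and lines group means. Quisinostat is highest in 9 panels, mivebresib is highest for MMP1, and mivebresib is lowest for ADAMTS16 and ADAM12.

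Of the TIMPs, TIMP1 and TIMP2 passed the test with no drug, though TIMP2 did with romidepsin (0.34, adjusted p = 0.0211) and mivebresib (0.34, adjusted p = 0.0174) once control replicate 2 was left out, and TIMP3 rose with romidepsin and fell with mivebresib. TIMP2 had 31075 and 40789 counts in the control, 42286 and 38970 with romidepsin, 37274 and 41546 with quisinostat and 37022 and 40094 with mivebresib. In counts the TIMP2 groups overlapped throughout. In CPM the control libraries (1101 and 1490) spanned all others. Quisinostat (1180 and 1323 CPM) lay below romidepsin (1452 and 1342) and mivebresib (1354 and 1442). The log2 FC of TIMP2 lay between -0.05 and 0.11 with an SE of 0.15, and that of TIMP1 between -0.06 and -0.04 with an SE of 0.11. The sign of these small values changed with the scaling: library size alone moved all quisinostat values up by 0.2 on the log2 scale. TIMP3, the TIMP that stays bound to matrix and also inhibits ADAM10, ADAM17 and several ADAMTS enzymes, had 3038 and 3941 counts in the control, 6950 and 5891 with romidepsin, 3740 and 3919 with quisinostat and 1250 and 1208 with mivebresib. The romidepsin libraries were above, and the mivebresib libraries below, every other. TIMP3 rose by 0.81 ± 0.14 with romidepsin (adjusted p = 0.00336) and fell by 1.496 ± 0.143 with mivebresib (adjusted p = 7.6e-05), just inside the fold of a call, and had a log2 FC of -0.05 ± 0.14 with quisinostat. With mivebresib it fell by 1.69 without control replicate 1, where it was called, and fell by 1.27 without control replicate 2.

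All but TIMP2 lie inside a synapsin gene on the opposite strand. TIMP1 lies within SYN1 (chrX:47571898-47619943), TIMP3 within SYN3 (chr22:32512552-33058372) and TIMP4 within SYN2 (chr3:12004402-12191400), where synapsins coat synaptic vesicles. SYN1 rose with all 3 drugs, by 3.08, 4.73 and 3.28 on the log2 scale with romidepsin, quisinostat and mivebresib, from 7 and 5 counts in the control to 172 and 196 with quisinostat, while TIMP1 had 3531 and 3908 counts there. SYN2 rose as well (1.83, 4.11 and 1.52), with 109 and 72 counts with quisinostat, and TIMP4 stayed at 0 in all 8 libraries. SYN3 rose with quisinostat and mivebresib (2.42 and 1.86), whereas TIMP3 fell with mivebresib. The highest synapsin count in any library was 196, and the lowest count of TIMP1 or TIMP3 was 1208.

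The HDAC inhibitors were given at the same dose and time. In the direct test 13 members were higher and 6 lower with quisinostat than with romidepsin, beside 21% and 14.6% of all genes, and at the fold of a call 7 were higher and 0 lower, beside 5.41% and 0.179%. DESeq2 and an unadjusted p at that fold also gave 0 lower. The 7 were ADAMTS8 (log2 difference 2.48 ± 0.27), ADAMTS6 (2.39 ± 0.39), ADAMTS12 (2.30 ± 0.36), MMP9 (1.94 ± 0.22), MMP16 (1.92 ± 0.15), ADAM22 (1.87 ± 0.14) and ADAMTS3 (1.64 ± 0.45). ADAMTS6 passed the filter on low counts through quisinostat alone, so its call here is not independent of the filter. The ADAMTS3 difference was lost without either quisinostat library and without romidepsin replicate 1 (adjusted p = 0.0768 to 0.136). The 6 lower ones were TIMP3 (log2 difference -0.86 ± 0.14, adjusted p = 0.0022), ADAM19 (-0.85 ± 0.15), ADAM17 (-0.62 ± 0.16), ADAM10 (-0.50 ± 0.16), ADAM23 (-0.36 ± 0.12) and ADAM12 (-0.32 ± 0.10). Of these, ADAM10, ADAM12 and ADAM23 missed the test with library size alone (adjusted p = 0.0954, 0.177 and 0.158), with upper-quartile factors, with a mean CPM of at least 1 and when any 1 drug library was left out. ADAM17 missed it without either quisinostat library or romidepsin replicate 1. TIMP1 and TIMP2 missed the test, with log2 differences of -0.02 ± 0.11 and -0.16 ± 0.15. The drugs are unlike in structure, romidepsin being a cyclic depsipeptide and quisinostat a hydroxamate, and whether 40 nM is an equal dose of both was not tested.

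Mivebresib was given at another dose, and its values stand beside those of the HDAC inhibitors as a description of these treatments. Against romidepsin 8 were higher and 16 lower, beside 23.7% and 25.2% of all genes, and 1 was called higher and 9 lower, beside 2.52% and 6.7%. Against quisinostat 6 were higher and 22 lower, beside 26.2% and 31.5%, and 2 were called higher and 12 lower, beside 1.73% and 12.6%. The member called higher against both was MMP1 (2.75 ± 0.45 and 1.54 ± 0.39), though the latter missed the test without quisinostat replicate 1 (adjusted p = 0.0831) or mivebresib replicate 2 (adjusted p = 0.0501) and the fold with library size alone (1.36) or upper-quartile factors (1.45). ADAMTS6, ADAMTS8, ADAMTS9, ADAMTS12, ADAMTS15 and ADAMTS16 were called lower against both. ADAMTS6 and MMP28 passed the filter on low counts through quisinostat alone, and ADAMTS3, ADAMTS8, ADAMTS9 and ADAMTS12 through the HDAC inhibitors alone. They were tested because they were high there, so the counts called lower are not independent of the filter. The same holds on the higher side for MMP23B, through mivebresib alone, and MMP1, through quisinostat and mivebresib. The ADAMTS15 calls were lost against both without mivebresib replicate 1, against quisinostat without quisinostat replicate 2 and against romidepsin without romidepsin replicate 1. The log2 difference of ADAMTS12 was -5.77 ± 0.55 against quisinostat (adjusted p = 4.38e-05), with 326 counts in the quisinostat libraries against 5 in the mivebresib ones, a ratio of 57.1 by counts (95% interval 24.2 to 177). For ADAMTS6 that ratio was 55.2 (15.0 to 460), and the order of these members cannot be told. For TIMP3 the log2 difference was -2.31 ± 0.15 from romidepsin (adjusted p = 9.13e-06) and -1.45 ± 0.14 from quisinostat (adjusted p = 5.62e-05).

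Genes that activate, carry or restrain these proteases were given by a list of 25, all of which were tested. With romidepsin 8 of the 25 rose, beside 15.2% of all genes, and the other 17 missed the test. With quisinostat 7 rose and 3 fell, beside 28% and 25.1% of all genes, and with mivebresib 5 rose and 5 fell, beside 22.2% and 24.1%. RECK, a membrane-anchored inhibitor of MMPs, rose with all 3 drugs, from 276 and 406 counts in the control to 716 and 622 with romidepsin, 656 and 754 with quisinostat and 643 and 686 with mivebresib (log2 FC 0.90 ± 0.18, 0.86 ± 0.18 and 0.97 ± 0.18). No drug library overlapped the control for it. FURIN, the convertase that activates membrane-type MMPs and ADAMs, passed with no drug, and BSG, the MMP inducer basigin, rose with mivebresib (0.50 ± 0.15, adjusted p = 0.0238).

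Called genes of the list came from the plasminogen system, the thrombospondins and the tetraspanins. PLAU, the urokinase that activates plasminogen, was called higher with quisinostat (2.92 ± 0.80, adjusted p = 0.0143) on 0 and 4 control counts and 12 and 24 with the drug, the only group with both of its libraries above the filter on low counts. THBS1, thrombospondin-1, which binds matrix and activates TGF-beta, had 693 and 1013 counts in the control, 981 and 905 with romidepsin, 944 and 1057 with quisinostat and 59 and 71 with mivebresib, and fell by 3.70 ± 0.22 with mivebresib (adjusted p = 8.3e-06). TSPAN10, a tetraspanin that carries ADAM10, fell by 1.73 ± 0.12 with quisinostat (adjusted p = 1.31e-05) and by 2.42 ± 0.13 with mivebresib (adjusted p = 5.09e-06), from 1100 and 1172 counts to 339 and 439, and to 208 and 214. Other tetraspanins of the list rose, fell or passed with no drug. TSPAN5 rose with romidepsin, quisinostat and mivebresib (log2 FC 0.49, 0.48 and 1.25), and TSPAN33 with the last 2 (1.44 and 0.98). TSPAN14 and TSPAN15 rose with romidepsin (0.58 and 0.55), TSPAN15 fell with mivebresib (-0.90) and TSPAN17 passed with no drug. Among the ADAMTS-like proteins, which resemble ADAMTS enzymes without the protease part, 5 were tested and ADAMTSL1 alone was called, with quisinostat, on 1 and 0 control counts against 13 and 10. It had at most 1 count in any other library and was tested because it was high there.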

How the data were processed

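Bulk RNA of 8 MP38 libraries was sequenced by the authors and quantified through BioJupies on hg38, per the labels and the study's methods. The aligner and annotation are not given in the sources used here, nor is the use of strand in counting. The authors deposited counts per gene symbol without normalization. The authors also deposited a log10 table, which equals log10(CPM + 1) of the counts with differences of at most 4.4e-16, and a quantile-normalized score whose scale is not named and which served as an alternative by adjusted p alone.

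Members and lists were chosen with earlier results of these data known. Counts of all 8 libraries entered 1 model in edgeR 4.0.16 (R 4.3.3) with TMM scaling, filterByExpr by group with a minimum count of 10 (a CPM of 0.345), the quasi-likelihood test and Benjamini-Hochberg adjustment over 15085 genes, after the script was tested on simulated counts. The biological coefficient of variation was 0.0938. Log2 FC is given with its standard error. Named members were those called with any drug or between drugs, the 10 with the highest mean CPM, every TIMP, and MMP2, MMP9, MMP14, ADAM9, ADAM10, ADAM15, ADAM17 and ADAMTS1. Named genes outside the members were the listed pathway genes called with a drug, RECK, BSG and FURIN. A result that this rule would name is not reported here. Other genes were named after their values were seen.

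Replicate numbers come from the labels. Over genes, the deviations of same-numbered libraries correlated between -0.162 and 0.158 over the 6 pairs of groups, so the numbers were not taken to pair the libraries. Alternatives were DESeq2 1.42.0, limma-voom (limma 3.58.1), other scalings and filters, the 4 libraries of a comparison, a replicate block, a log2 FC beyond 1 and each library left out in turn. In the last, the lone library of a group is assumed to vary like the others. Gene spans and exon lengths are from GENCODE 29 on GRCh38. Ratios of counts carry 95% intervals that cover counting error only. Total counts of 28483235 to 29359024 set the depth. Sequences were read with Python 3.11.15 and pandas 2.3.3, scipy 1.17.1 gave the intervals and matplotlib 3.10.9 the plots.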

Additional observations from a re-analysis of the deposited data

How the results depend on the processing

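With quisinostat, 9 to 11 members were called higher when a library was left out, and ADAM22, MMP9, MMP16, ADAMTS3, ADAMTS6, ADAMTS8, ADAMTS9 and ADAMTS12 were called in each of those fits. Leaving out each library in turn gave 3 to 7 members called higher with romidepsin, and 3 to 5 higher and 2 to 4 lower with mivebresib. The filter on low counts was applied again in each fit that left out a library. With all 8 libraries, ADAMTS6 passed it through quisinostat alone, ADAMTS3, ADAMTS8, ADAMTS9 and ADAMTS12 through the HDAC inhibitors, and MMP9 through all 3 drugs. They were tested because they were high there, so their calls in these fits are not independent of the filter. With a log2 FC beyond 1, 8 members were higher and 1 lower with romidepsin, 17 higher and 1 lower with quisinostat, and 5 higher and 5 lower with mivebresib. On the quantile-normalized table, by adjusted p alone and no fold, 2 were lower with quisinostat, and 5 higher and 4 lower with mivebresib. By adjusted p alone, the main fit had 6 lower with quisinostat, and 11 higher and 8 lower with mivebresib. With a mean CPM of at least 1, 3 were called higher with romidepsin, 6 with quisinostat, without ADAMTS3, ADAMTS6 and ADAMTS9, and 8 between mivebresib and quisinostat. With only the 4 libraries of the comparison, 2 were called higher with romidepsin. The replicate block took the romidepsin count from 5 to 4 (ADAMTS3, adjusted p = 0.0563 in edgeR) and changed no other count of calls against control. For the quantile-normalized table and the block the cause was not tested. The block rests on 2 numbers per group that were not taken to pair the libraries.

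None of the values whose sign turned had passed the test. With library size alone, the log2 FC with romidepsin became 0.031 for ADAM12, 0.041 for ADAMTS1 and 0.034 for TIMP1, and with quisinostat 0.13 for ADAM10, 0.18 for ADAM9, 0.14 for TIMP1, 0.15 for TIMP2 and 0.15 for TIMP3. With upper-quartile factors it became 0.043 for ADAM12, 0.052 for ADAMTS1 and 0.046 for TIMP1 with romidepsin, 0.063 for ADAM10, 0.10 for ADAM9, 0.071 for TIMP1, 0.081 for TIMP2 and 0.082 for TIMP3 with quisinostat, and 0.0044 for TIMP1 with mivebresib. With a mean CPM of at least 1 it became 0.022 for ADAM9 and 0.00049 for TIMP3 with quisinostat, and with no filter -0.0060 for MMP2 with quisinostat.

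Leaving out 1 library moved the romidepsin log2 FC across 0, from -0.13 to 0.078 for ADAM12, -0.15 to 0.26 for ADAM15, -0.076 to 0.43 for ADAM9, -0.27 to 0.28 for ADAMTS1, -0.81 to 0.27 for MMP1, -0.38 to 0.18 for MMP14, -0.91 to 0.51 for MMP23B, -0.12 to 0.067 for TIMP1 and -0.069 to 0.34 for TIMP2. The quisinostat value ran from -0.31 to 0.21 for ADAM10, -0.27 to 0.26 for ADAM9, -0.16 to 0.41 for ADAMTS1, -0.17 to 0.22 for MMP2, -1.28 to 0.11 for MMP23B, -0.16 to 0.041 for TIMP1, -0.25 to 0.18 for TIMP2 and -0.25 to 0.17 for TIMP3. The mivebresib value ran from -0.31 to 0.22 for ADAM10, -0.066 to 0.47 for ADAM9, -0.76 to 0.16 for ADAMTS2, -4.16 to 0.028 for ADAMTS6, -0.14 to 0.87 for ADAMTS9, -0.15 to 0.064 for TIMP1 and -0.092 to 0.34 for TIMP2. The cause was not tested. With 2 libraries per group and few counts for most members, small differences were not detectable at this depth.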

Other observations

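Of the 27 members too low to test, MMP12, which cuts elastin, had the highest count in any library, with 9 and 19 counts with quisinostat, 3 and 2 in the control, 7 and 3 with romidepsin and 2 and 0 with mivebresib. MMP10, a stromelysin, had 6 and 9 counts with quisinostat, 5 and 10 with mivebresib, 5 and 0 with romidepsin and 0 and 1 in the control. Both passed the filter on low counts in some fits that left out a library, through the groups where they were high, so their calls there are not independent of the filter. ADAM28 had at most 9 counts and MMP19 at most 7. These members were named after their values were seen, and none passed the filter with all 8 libraries.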
